A study of Homo sapiens with 2 samples.

Results

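The hnRNP and splicing factor transcripts are the mRNAs of 54 genes, out of 20046 protein-coding genes in GENCODE release 44. They are all genes whose names start with HNRNP, SRSF, SF3A or SF3B, together with TRA2A, TRA2B, U2AF1, U2AF2, PTBP1 and PTBP3, and membership was set by gene name. CLIP-seq was used to locate contacts of RBMS3, an RNA-binding protein, in MDA-MB-231 cells, a widely used human cell line from triple-negative breast cancer. The cells had been stably transduced with a lentiviral vector that expresses RBMS3 with a FLAG tag at its N-terminus, in addition to their own RBMS3, and were irradiated with 254 nm ultraviolet light at 400 mJ/cm2 before the protein was pulled down with anti-FLAG beads. There was 1 group with 2 biological replicates, and the title of replicate 2 says MDA-MB-231 whereas its source and cell line labels say MDA-MB-232. The deposited values are a single list of 27706 sites called on the pooled tags of both replicates, so the spread between the replicates is not known for any value, and a control library was not analysed here. The question was which of these transcripts RBMS3 contacts, and where.

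Heterogeneous nuclear ribonucleoproteins (hnRNPs) coat nascent transcripts and often repress exons, whereas SR proteins bind exonic enhancers and recruit the splicing machinery. SF3A and SF3B are the protein complexes of the U2 snRNP that hold the branch site, and U2AF recognises the polypyrimidine tract and the AG at the 3′ splice site. Many genes of these families regulate their own mRNAs through alternative exons and alternative 3′UTRs.

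Each site is a base that was deleted in part of the tags that cover it. A tag is a unique sequenced RNA fragment, and the deletion percentage is the share of covering tags that lack the base. Of the 54 genes, 44 had at least 1 site on their own strand (81.5%, 95% Wilson interval 69.2 to 89.6), compared with 37.6% of all protein-coding genes. A site in a 3′UTR was found in 43 genes, against a background of 31.8%, and with only the MANE Select transcript, the agreed reference transcript of a gene, or the canonical transcript counted it was again 43 genes, against 30.8%. RNA levels were not analysed here, so frequent contact and abundant mRNA cannot be told apart. The 1 gene whose site lay outside any of its 3′UTRs was HNRNPUL2-BSCL2, a read-through gene that shares its site with HNRNPUL2. A site on the opposite strand was found within 1 of the 54 genes, HNRNPU, against 6.59% of all genes.

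The bound genes were spread over all role groups. Among hnRNPs 20 of 27 genes had a site, and among SR proteins 11 of 12. Both TRA2 genes, all 3 SF3A genes, 5 of 6 SF3B genes, 1 of 2 U2AF genes and both PTB genes had a site. The 44 genes held 262 sites, which formed 110 clusters when sites within 50 nt were joined. The hnRNP genes held 150 sites, the SR genes 58, the SF3B genes 20, the PTB genes 12, the SF3A genes 9, the TRA2 genes 7 and U2AF2 6.

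The 10 genes without a site were HNRNPA1L2, HNRNPA1L3, HNRNPCL1, HNRNPCL2, HNRNPCL3, HNRNPCL4, HNRNPL, SF3B4, SRSF12 and U2AF1. The first 6 are copies of HNRNPA1 and HNRNPC. HNRNPL binds CA repeats, SF3B4 is a subunit of SF3B, SRSF12 is an SR protein and U2AF1 is the small subunit of U2AF. The last 100 nt of the transcript occurred at 2 places in hg38 for U2AF1, SF3B4, HNRNPCL3 and HNRNPCL4, and at 1 place for the others, and fragments from a stretch with 2 exact copies cannot be placed by their sequence. The 3′UTR of the MANE Select transcript had a median of 318 nt in the 9 unbound genes that have such a transcript and of 1687 nt in the 43 genes with a 3′UTR site.

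The sequences below are the sites with the most deletions in genes of several role groups, read from hg38 in the sense of the transcript, 14 nt on each side of the deleted base. They are shown because they have a poly(A) signal close to the deletion and, except for PTBP1, a run of T at it, features that recur below. Capitals mark the run of identical bases in which the deletion was placed.
HNRNPA2B1, chr7:26191852-26191880, minus strand: gtacatttatgaTTTaataaaataattct
HNRNPA1, chr12:54285218-54285246, plus strand: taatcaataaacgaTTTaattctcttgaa
SRSF5, chr14:69771960-69771988, plus strand: cattagagcagctgTTTgttattgataat
SRSF2, chr17:76734138-76734166, minus strand: ttgtttctgtagTTTaattaaaacatttt
TRA2B, chr3:185917322-185917350, minus strand: aacaataaacagTTTgatttttacttttc
SF3A3, chr1:37956984-37957012, minus strand: cttcaactgTTTTTTaataaatctacttt
U2AF2, chr19:55674683-55674711, plus strand: ttgctcattaaacaTTTTgttgtatttta
PTBP1, chr19:812279-812307, plus strand: gtacctggacttcgAAtaaatcttctgta

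In the sequence of HNRNPA2B1 the TTT run lies directly before AATAAA, and in HNRNPA1 and TRA2B AATAAA lies upstream of it. In PTBP1 the deletion falls on the first bases of AATAAA itself. In SRSF5 the signal starts 12 nt downstream of the deletion and runs past the printed bases. In other genes the strongest site had neither AATAAA nor ATTAAA within 25 nt. In HNRNPK this holds for the strongest site only, as the sites with 244 and 162 deletions in its cluster have AATAAA in their windows. The following 4 are shown for contrast.
HNRNPK, chr9:83968215-83968243, minus strand: agtatcttggcaTTTgtattgatagttaa
SRSF9, chr12:120461684-120461712, minus strand: cggcccattctgTTTagaaatatatttta
SF3A1, chr22:30333715-30333743, minus strand: gatttgataaagTTTaaataatttactct
SF3B3, chr16:70572273-70572301, plus strand: aaatagaaacctagTTTTTaaggtgactg

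Sites in these genes lay almost entirely in 3′UTRs. Of 262 sites, 247 were in a 3′UTR (94.3%, interval 90.8 to 96.5), compared with 84.7% of the 25045 sites of the list that lie in protein-coding genes. The other 15 were 6 intronic sites, 4 coding sites, 3 sites in noncoding exons and 2 sites in 5′UTRs. Neighbouring sites can share tags, so they are not independent, and the intervals cover counting error only.

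The sites fell into 2 classes by their deletion percentage, divided here at 30%. Low sites were covered by many tags and high sites by few. No listed site had fewer than 7 deletions, so a site with few tags could be listed only at a high percentage. The depth and the percentage of a listed site are therefore not independent. The 233 low sites were covered by a median of 7794 tags (range 138 to 70352), and had 36 to 2675 deletions and a median deletion percentage of 1.34%. The 29 high sites were covered by a median of 12 tags (range 7 to 58), and 17 of them had the deletion in 100% of the tags. All 233 low sites were in 3′UTRs, as were 97.7% of low sites in all protein-coding genes. Of the 29 high sites 14 were in 3′UTRs (48.3%, against 44.7% over all protein-coding genes) and 15 were the sites outside them. Low sites made up 88.9% of the sites in these genes (interval 84.6 to 92.2) and 75.6% over all protein-coding genes. With 1 site per cluster the share in these genes was 73.6% (81 of 110), and the same value over all genes is not given here. A low site was present in 44 of the 54 genes (81.5%), against 29.1% of all protein-coding genes, and 21 of these 44 genes also had a high site.

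**Figure D1:**
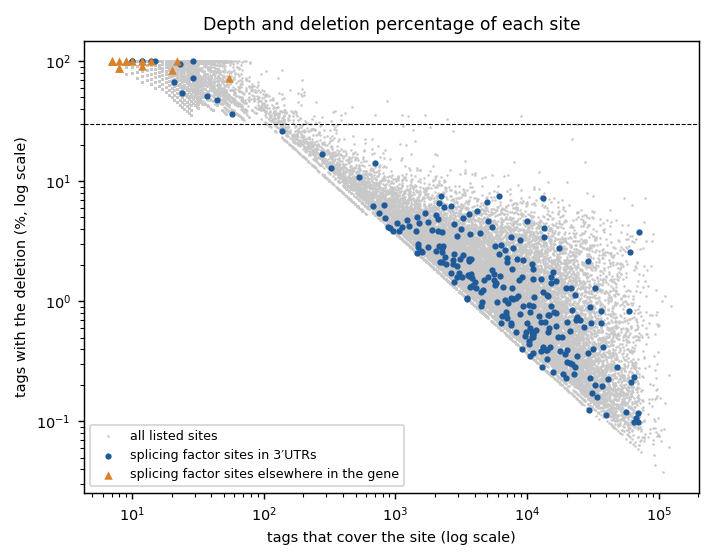
Each point is a site, with the tags that cover it on the x axis and the percentage of those tags with the deletion on the y axis, both on log scales. Grey points are the 27706 listed sites, blue points are sites in 3′UTRs of the hnRNP and splicing factor genes and orange triangles are their 15 sites elsewhere in the gene, all of which lie above the dashed line at 30% and were covered by at most 55 tags.

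HNRNPA2B1, which encodes an hnRNP that acts in splicing and mRNA transport, had the most sites and the most deletions of the 54 genes. It held 25 sites in 6 clusters with 6221 deletions, out of 31356 in all genes of the set. The strongest site, at chr7:26191866, had 2675 deletions in 70352 tags (3.80%, interval 3.66 to 3.95), and a neighbour at chr7:26191873 had 1546 in 60374 tags (2.56%, 2.44 to 2.69). Both belong to a cluster of 17 sites that contains AATAAA, 1470 nt upstream of the nearest annotated transcript end downstream of it. The other 15 sites of this cluster were far weaker, with 37 to 490 deletions. A second low cluster of 4 sites (37 to 98 deletions, up to 5609 tags) lay within 16 nt of an annotated end. The remaining 4 sites were high sites with 7 to 21 deletions, in the 5′UTR, the coding sequence and 3′UTRs. The main cluster has 1 other place in hg38 at which at least 46 of 51 bases are identical.

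HNRNPA1, an hnRNP that represses exons, had 15 sites in 3 clusters, each at a different annotated transcript end. The middle cluster was the deepest, with up to 39969 tags, compared with 11085 in the upstream cluster and 2223 at the end of the MANE Select transcript. Its strongest site, at chr12:54285232, had 632 deletions in 28906 tags (2.19%, interval 2.02 to 2.36). The deletion percentage was highest in the shallowest cluster, where 167 of 2223 tags had the deletion (7.51%, 6.49 to 8.68). That deletion lay in a run of 11 Ts, against runs of 2 and 3 bases at the strongest sites of the upstream and middle clusters. The part of the run in the percentage was not tested. The windows of the upstream and middle clusters have 18 and 2 other near-identical places in hg38, and the third has none. HNRNPK, a poly(C)-binding hnRNP, had 12 low sites in 2 clusters, all within 44 nt of an annotated end. Its sites had 61 to 287 deletions, with the top value in 8863 tags (3.24%, 2.89 to 3.63).

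HNRNPU, which encodes a protein that binds chromatin and the nuclear matrix, and its relative HNRNPUL1 also had 6 clusters each. The clusters of HNRNPU lay from 4086 to 35 nt upstream of the end of the MANE Select transcript, and the top site had 259 deletions in 7506 tags (3.45%, interval 3.06 to 3.89). HNRNPUL1 had 5 clusters in its 3′UTR and 1 intronic high site (9 of 9 tags). Its top site had 225 deletions in 10896 tags (2.06%, 1.81 to 2.35). HNRNPA0, HNRNPC and SRSF11 tied with 5 clusters each. HNRNPA0, a binder of AU-rich elements with the longest 3′UTR of the set (7498 nt), had all 10 sites 4827 to 7003 nt upstream of its only annotated end. Its sites had 42 to 125 deletions in 325 to 3624 tags, and windows with AATAAA occurred in 4 of the 5 clusters. HNRNPC, which binds U tracts, had 4 clusters in the 3′UTR, and its top site had 164 deletions in 4393 tags (3.73%, 3.21 to 4.34).

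Among SR proteins, SRSF2 had the most deletions, 1616 over 11 sites in 1 cluster at the end of the gene. Its strongest site had 481 deletions in 17396 tags (2.77%, interval 2.53 to 3.02). SRSF5 had the SR site with the most deletions, 959 in 13137 tags at chr14:69771974 (7.30%, 6.87 to 7.76), whereas its 4 other sites within the same cluster had 41 to 92 deletions. SRSF9 had 6 sites in 1 cluster with 65 to 259 deletions in 21999 to 23869 tags, so that the percentages were low, 0.282% to 1.12%. All sites of these 3 genes were low sites within 42 nt of an annotated end.

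SRSF10, a splicing repressor when dephosphorylated, had a top site with 461 deletions in 13388 tags (3.44%, interval 3.15 to 3.77). That site lay 14 nt from an annotated end and 2112 nt from the end of the MANE Select transcript. SRSF11 had a top site with 457 deletions in 6098 tags at chr1:70251977 (7.49%, 6.86 to 8.18). SRSF11 also held the 1 low site of the set outside the 3′UTR of the MANE Select transcript, at chr1:70244784 (48 of 2270 tags, 2.11%). There the MANE Select transcript is coding, and another transcript, annotated as a target of nonsense-mediated decay, has its 3′UTR.

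TRA2B, an SR-like activator that binds GAA-rich enhancers, had 6 low sites in 4 clusters, and its top site had 165 deletions in 2670 tags (6.18%, interval 5.33 to 7.16). All 4 clusters lay 2224 to 2778 nt upstream of the end of the MANE Select transcript. Of these, 3 were within 39 nt upstream of another annotated end, and the strongest site of the remaining cluster lay just past such an end (-23 nt). Its paralog TRA2A had 1 site (47 of 2194 tags, 2.14%).

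In the U2 snRNP, SF3B6, the small subunit that contacts the branch site adenosine, had 8 sites within 58 nt of its end. They were covered by 6603 to 37703 tags, the most in any SF3A or SF3B gene, and had 54 to 238 deletions, and the top site was at 0.657% (interval 0.579 to 0.746). SF3B1, the large subunit that clamps the branch site, had 5 low sites. They lay 2079 to 2217 nt upstream of the nearest annotated end downstream of them, and the top site had 190 deletions in 8396 tags (2.26%, 1.97 to 2.60). SF3B3, a scaffold subunit, had 2 sites, with 192 deletions in 3605 tags (5.33%, 4.64 to 6.11) and 51 in 3805 tags. These sites were 12 and 26 nt from an annotated end, and the top site was 5381 nt from the end of the MANE Select transcript. SF3A1 had 4 low sites in 2 clusters, 1 of them 1741 nt upstream of the end (235 of 5066 tags, 4.64%, 4.09 to 5.25) and the other at the end (142 of 2326 tags, 6.10%). SF3A2 had 1 site (47 of 2928 tags) and SF3A3 had 2 low sites (56 of 1438 and 41 of 1555 tags). SF3B2 and SF3B5 had 2 sites each.

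U2AF2, the subunit that binds the polypyrimidine tract, had 6 low sites in 1 cluster within 25 nt of its end, with 49 to 276 deletions, and its top site was at 1.76% (276 of 15656 tags, interval 1.57 to 1.98). PTBP1, a repressor that binds polypyrimidine tracts, had 7 low sites near its end. The deepest lay in a cluster of 6 sites with 423 deletions in 32986 tags at the top (1.28%, 1.17 to 1.41), and a separate site upstream had a higher percentage, 335 of 4969 tags (6.74%, 6.08 to 7.47). Its paralog PTBP3 had 5 weaker sites, with 10 to 58 deletions, none within 100 nt of an annotated end.

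**Figure D2:**
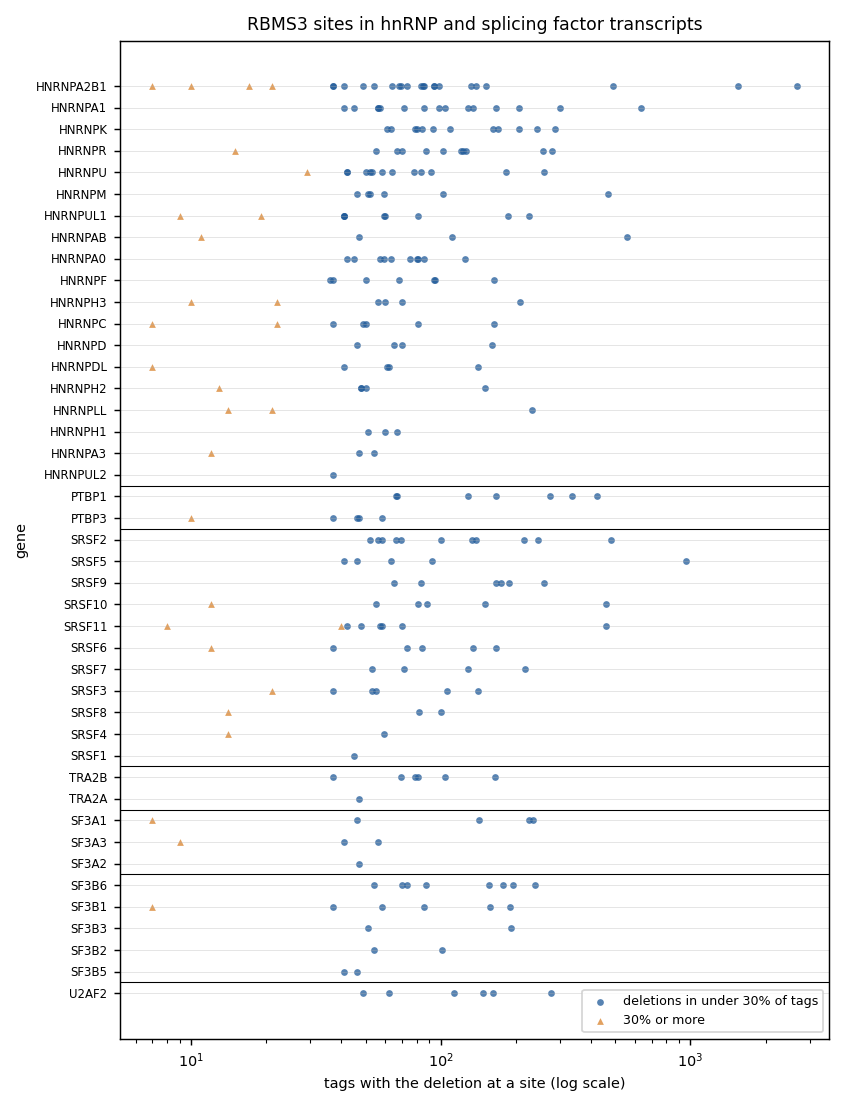
Each point is a site, placed by the number of tags with the deletion on a log scale. There is 1 row per bound gene except HNRNPUL2-BSCL2, whose site is shown in the row of HNRNPUL2. Lines separate the role groups (hnRNP, PTB, SR, TRA2, SF3A, SF3B and U2AF from top to bottom). Blue points are low sites and orange triangles are high sites, and the sites of HNRNPA2B1 with 2675 and 1546 deletions and that of SRSF5 with 959 lie furthest to the right.

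Sites outside the 3′UTRs were shallow in every gene that had them. HNRNPAB, an hnRNP with a strong 3′UTR site (557 of 13532 tags, 4.12%, interval 3.79 to 4.46), had a coding site with 11 of 12 tags. HNRNPH3, a G-tract-binding hnRNP, had a coding site (10 of 10 tags) and a noncoding exon site (22 of 22). HNRNPDL had a 5′UTR site (7 of 7), SF3A1 a coding site (7 of 7), SF3A3 a noncoding exon site (9 of 9) and SF3B1 an intronic site (7 of 8). HNRNPC and HNRNPLL had an intronic site each (7 of 7 and 14 of 14), HNRNPLL being named here to complete the count. SRSF11 had 2 intronic sites, 1 of which, with 40 of 55 tags, was the deepest of these sites. The window of the intronic SF3B1 site has 253 other near-identical places in hg38.

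The exons through which splicing factors turn down their own mRNAs were not identified as such, and only the annotated type of transcript was used. Sequence found only in transcripts annotated as nonsense-mediated decay targets or retained introns amounted to 91296 nt in 36 of the genes, compared with 186087 nt in the exons of the MANE Select transcripts. It held 1 site, in SRSF10 (12 of 12 tags), and no low site, whereas the MANE Select exons held 253 sites. Most of the latter were 3′UTR sites, as 245 sites of the set lay in the 3′UTR of a MANE Select transcript. Over all protein-coding genes 97.7% of low sites were in 3′UTRs, 0.153% in noncoding exons and 0.946% in introns. The count for such sequence over all genes was not made, so few sites there cannot be called particular to these genes. In SR genes such sequence covered 20606 nt in 10 of 12 genes. The level of these RNAs was not analysed here.

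Along the 3′UTRs the sites gathered at annotated transcript ends, but not in all genes. A 3′UTR site within 100 nt upstream of an annotated end was present in 36 genes, against a background of 25.8%. Of 247 sites in 3′UTRs, 160 lay this close to an end (64.8%, interval 58.6 to 70.5), compared with 69.3% over all protein-coding genes. With only the end of the MANE Select transcript counted, the share was 32.2%, and the same value over all genes is not given here. The main count takes the ends of all annotated transcripts, whose number differs between genes, from 1 in HNRNPA0 to 84 in HNRNPA1. In 21 genes all 3′UTR sites were close to an end and in 15 some were. In 7 genes, HNRNPA0, HNRNPA3, HNRNPUL2, PTBP3, SF3B1, SRSF3 and SRSF8, none was. These counts take only ends downstream of a site. In HNRNPA3 and SRSF8 the strongest site of a cluster lay just past another annotated end (-19 and -24 nt). The cDNA was primed with oligo(dT) after a poly(A) tail had been added to the recovered RNA, and fragments that end in their own tail can enter the library by the same route. The part of this step in the closeness to ends was not tested.

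Many genes had several separate clusters. At least 2 clusters in 3′UTRs were found in 26 genes (background 11.5%), at least 3 in 14 genes (background 4.38%), and at least 5 sites in 27 genes (background 9.12%). Clusters that hold only a high site are counted here and in the background. With low sites only, 81 of the 95 clusters in 3′UTRs remained. HNRNPH2, HNRNPLL, HNRNPR and SRSF4 then had fewer than 2, and HNRNPA2B1, HNRNPA3, PTBP3 and SRSF8 fewer than 3. The background with low sites only was not counted. Genes with more clusters had longer 3′UTRs in the MANE Select transcript. The median was 648 nt for 17 genes with 1 cluster, 1610.5 nt for 12 genes with 2 clusters and 3153.5 nt for 14 genes with 3 or more. The ranges overlapped, from 109 to 5855 nt, from 667 to 6795 nt and from 1019 to 7498 nt.

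The poly(A) signal, the hexamer AATAAA or its variant ATTAAA on the strand of the transcript, was looked for within 25 nt of the strongest site of each of the 95 clusters in 3′UTRs. It was present in 62 (65.3%, interval 55.3 to 74.1), compared with 60.6% of 9975 clusters over all protein-coding genes. Within 10 nt of the site the signal was present in 25 of the 95 (26.3%). AATAAA was in 49 windows (51.6%, against 47.4% over all protein-coding genes) and ATTAAA in 16 (16.8%, against 16.1%). Among the 50 clusters within 100 nt of an end, 38 had a signal (76%, against 75.5% over all genes). Among the 45 clusters further from an end downstream of them, 24 had a signal (53.3%, interval 39.1 to 67.1), and over all genes 39.0% did. Some of these far clusters lay just past another annotated end, as in HNRNPU (-27 and -24 nt) and SRSF8 (-24 nt). Of the far clusters with a signal 15 were in hnRNP genes, 7 in SR genes and 2 in SF3B1.

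SRSF3, the smallest SR protein, and SRSF6 are examples of such far clusters. SRSF3 had its strongest site (141 of 7639 tags, 1.85%, interval 1.57 to 2.17) 2710 nt upstream of the nearest annotated end downstream, with AATAAA 9 nt after the deletion. SRSF6 had a site with 167 deletions in 5720 tags (2.92%, 2.51 to 3.39), 2064 nt from such an end, with AATAAA 8 nt before the deletion. Both sites also lay past another annotated end of their gene, which was nearer (-112 nt in SRSF3 and -207 nt in SRSF6). All 6 sites of SRSF6 also lie in an intron of another annotated gene on the same strand. Both genes were named here after their values were seen.

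Low sites lay on both sides of the signal. Of the 233, 169 had a signal in the window, and the deleted base was upstream of it in 84, inside it in 28 and downstream of it in 57. The median position was the first base of the signal (0 nt, quartiles -7 and 9). Where the base belongs to a run, the listed deletion is at its lowest coordinate, which is the last base of the run on the minus strand, so positions are uncertain by the length of the run.

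**Figure D3:**
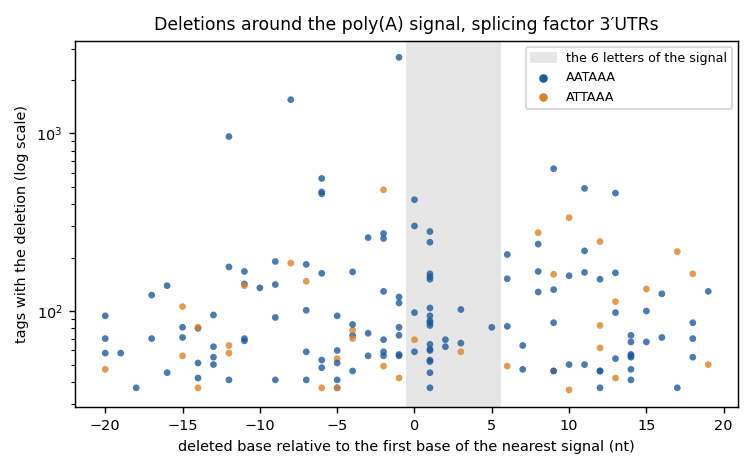
Position of the deleted base relative to the first base of the nearest AATAAA or ATTAAA (x axis, nt, negative values upstream) and tags with the deletion (y axis, log scale) for the 169 low sites with a signal in the window. The grey band marks the 6 bases of the signal, with 84 sites to its left, 28 within it and 57 to its right.

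The deleted base was T at the strongest site of 74 of the 95 clusters (77.9%, interval 68.6 to 85.1), and A, G and C in 13, 5 and 3. Over all protein-coding genes T was deleted at 74.4% of strongest sites. In 62 clusters (65.3%) the T lay in a run of at least 3, against 61.1% over all protein-coding genes. The pattern ATATA, also read on the strand of the transcript, was in 7 windows (7.37%, interval 3.61 to 14.4), compared with 13.6% over all genes.

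Some genes shared stretches of sequence at their sites. HNRNPM and SRSF11, which are not closely related, share the 15 bases GACTTTGATAATAAA, all written in capitals because all are identical, at the same place relative to the strongest deletion of each, 3 nt before it. The site of HNRNPM, at chr19:8489087, had 468 deletions in 10084 tags (4.64%, 4.25 to 5.07), and that of SRSF11 is given above. Among 33101 pairs of windows compared, HNRNPD with SF3A3 and HNRNPDL with TRA2B also shared 15 bases. How long a run unrelated windows would share was not tested. The pair of HNRNPM and SRSF11 was chosen after the values were seen, and both windows are printed to show the stretch around the TTT run.
HNRNPM, chr19:8489073-8489101, plus strand: acatcgaatatgacTTTgataataaatac
SRSF11, chr1:70251963-70251991, plus strand: ttgttttacaagacTTTgataataaaacc

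The paralogs HNRNPF, HNRNPH1 and HNRNPH2, which bind G tracts, also shared sequence near their ends. HNRNPF and HNRNPH2 have the 20 bases CTAAGTGAAACTTGTTAAAT in common within windows of sites with 68 deletions in 1517 tags and 48 in 7533 tags. HNRNPF and HNRNPH1 share 16 bases, GCTAAGTGAAACTTGT, the latter within a window of a site with 51 deletions in 3797 tags. Near-copies elsewhere in the genome were found for 26 of the 95 clusters in 3′UTRs, counted at 46 or more identical bases of 51, and none had another exact copy.

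Of 85 other genes of the splicing machinery, listed by function, 65 had a site and 60 a 3′UTR site, where the shares over all protein-coding genes were 37.6% and 31.8%. Genes whose only site is a high site count among the 65, such as SNRPG (16 of 16 tags), USP39 (13 of 14), CELF1 (27 of 27) and PTBP2 (25 of 25). For each function the 2 genes with the most deletions summed over their sites are named, with the values of their strongest site. Among the listed Sm, U1 snRNP and U2 snRNP proteins (the last being SNRPA1 and SNRPB2), 10 of 13 had a site. The largest sums were in SNRPE (838 of 27447 tags, 3.05%) and SNRPB (702 of 16830 tags, 4.17%). Among tri-snRNP proteins 11 of 14 had a site, with the largest sums in SNU13 (177 of 35489 tags, 0.499%) and PRPF8 (313 of 23195 tags, 1.35%). Of the PRP19 complex, which remodels the active spliceosome, 5 of 9 had a site, with the largest sums in PLRG1 (124 of 6478 tags, 1.91%) and SNW1 (139 of 4733 tags, 2.94%).

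Partners in 3′ splice site recognition had a site in 8 of 10 genes, with the largest sums in HTATSF1 (107 of 9267 tags, 1.15%) and PHF5A (95 of 4581 tags, 2.07%). Kinases that phosphorylate SR proteins had a site in 2 of 7, SRPK1 (598 of 8805 tags, 6.79%) and SRPK2 (50 of 1983 tags, 2.52%), and none was listed in CLK1, CLK2, CLK3, CLK4 or SRPK3. SR-related proteins had a site in 9 of 10, with the largest sums in RBM25 (171 of 11749 tags, 1.46%) and SCAF11 (166 of 7410 tags, 2.24%). Other splicing regulators had a site in 20 of 22, with the largest sums in KHDRBS1 (962 of 18591 tags, 5.17%) and MBNL1 (667 of 25518 tags, 2.61%). The epithelial regulators ESRP1 and ESRP2 were the 2 without a site.

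As a check of the labelled cells, all 10 mesenchymal and basal marker genes had a site, among them VIM, CD44 and CAV1. Of 10 luminal and epithelial markers KRT8, KRT18, KRT19, GATA3 and EPCAM had a site, and ESR1, PGR, FOXA1, CDH1 and ERBB2 had none, where 37.6% of all protein-coding genes had a site. The only site of SPARC, among the mesenchymal and basal markers, was a high site (51 of 52 tags), as was that of EPCAM (20 of 20 tags). A site list does not measure expression, so these counts do not show that luminal transcripts were absent.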

How the data were processed

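The authors appended molecular identifiers to the reads, aligned them to hg38 with the CLIP Tool Kit, pooled the unique tags of both replicates and called deletion sites at a false discovery rate under 10% and a fold above 10, which is not defined further in the sources used here. The deposited values are counts per site: pooled tags that cover it and tags with the deletion. They were not normalized. Library totals were not analysed here, so depth is given per site. Every interval is 21 nt long and its centre was taken as the deleted base.

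Sites were assigned to every protein-coding gene of GENCODE release 44 that spans them on the same strand, and classed as 3′UTR, 5′UTR, coding, noncoding exon or intron over all transcripts, in that order. A site in HNRNPUL2 and HNRNPUL2-BSCL2 was counted once. Distances are genomic, to the nearest annotated end downstream in the gene. Sites within 50 nt formed a cluster, and sequence windows had 51 nt. Near-copies were sought with blastn 2.17.0. The sequence of 1 site is not reported here. With 1 pooled list no test was made. Shares have 95% Wilson intervals and the whole list is given as a description. Values were given in full for the 3 genes with the most deletions per role group, those with the most clusters and up to 10 with a site outside the MANE Select 3′UTR. The genes and lists were chosen with earlier results of these data known. Alternatives were minimum deletions, deletion percentage, annotation, strand, cluster distance, window, signal, end distance and 1 site per cluster. The placement of sites was tested on 2000 simulated positions, all placed rightly. Python 3.11.15, pandas 2.3.3, scipy 1.17.1, pysam 0.24.0 and samtools 1.23.1 were used.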

Additional observations from a re-analysis of the deposited data

How the results depend on the processing

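Of 43 alternative values, 23 stayed within the interval or within 1.5 times of the value given and 20 moved. The share of sites in 3′UTRs became 99.2% for sites with 20 or more deletions, 100% for 50 or more deletions or under 30% of tags, 55.9% for at least 10% of tags and 86.4% with 1 site per cluster. The share near an end became 70.9% for sites with 50 or more deletions, 5.26% for at least 10% of tags, 32.2% with MANE Select ends only and 52.6% with 1 site per cluster. The share of clusters with a poly(A) signal became 81.8% for 50 or more deletions, 75.3% under 30% of tags, 26.3% both with at least 10% of tags and with 10 nt on each side, and 51.6% with AATAAA only. The share of low sites became 97.1% for 20 or more deletions, 100% for 50 or more and 73.6% with 1 site per cluster. The genes with a site fell to 23 with at least 10% of tags, 16 of which had a 3′UTR site, and to 1 on the opposite strand. The settings on deletions, tags and 1 site per cluster keep fewer sites, and those on the window, the signal and the MANE Select ends narrow what is counted as present. The cause was not tested further. No paired analysis was possible because the list was called on pooled replicates, and leaving out a replicate was not possible for the same reason. Sites need a minimum of deletions at a given depth, so a gene without a site may be bound below what this depth shows.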
